A study of Arabidopsis thaliana with 64 samples.

Results

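HY5 is a bZIP transcription factor that acts downstream of the phytochromes, cryptochromes and the UV-B receptor UVR8, and it is best known for promoting seedling greening and flavonoid accumulation in the light. In darkness it is marked for degradation by the COP1-SPA ubiquitin ligase. Roots of plants grown on agar also receive light, and HY5 is known to act in them. The *hy5-215* roots at sufficient phosphate (Pi) described here were chosen by their labels. They comprise the 3 arrays labelled as *hy5-215* roots under normal white light and sufficient Pi, set against the 3 wild-type (WT) Col-0 arrays made for that mutant in the same organ, light and medium, which is 6 of the 64 arrays in the series.

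*hy5-215* is a chemically induced mutant allele and the only *hy5* allele on the arrays. All plants were 4 weeks old and were grown on MS-based agar at 23 °C in 16 h light and 8 h dark, per the labels. Each array carried 1-colour labelled cDNA of total RNA, and a level below means the log2 signal of a gene's probe minus the 75th percentile of that array, so that 0 stands for a bright spot. A gene was called when its adjusted p was below 0.05 and its fold change was over 2 in either direction. The study's methods describe the 3 replicates as biological, while the labels do not say that they came from separate plants or cultures. In whole roots, a lower level in each cell and fewer cells with the transcript cannot be told apart.

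On the 6 arrays, 78.8% to 79.3% of spots in *hy5-215* and 74.0% to 79.9% in WT were well above background. All 18 root identity markers, among them *SHR*, *SCR*, *WOX5* and *CASP1*, were above background on all 3 *hy5-215* and all 3 WT arrays. Of 12 shoot and leaf identity markers, 9 were above background on no *hy5-215* root array and 10 on no WT root array, and *STM*, *YAB1*, *SPCH*, *MUTE* and *FAMA* were among them. The summed linear level of the 12 genes was 0.0949 to 0.152 in *hy5-215* roots and 0.0878 to 0.154 in WT roots, whereas it was 8.34 to 11.3 in *hy5-215* shoots and 8.3 to 10.4 in WT shoots. Each slide carried 1 array of every root group of the set at a fixed position, so that position on the slide and group cannot be told apart. Correlations over all genes were 0.980 to 0.989 among *hy5-215* arrays, 0.984 to 0.991 among WT arrays and 0.961 to 0.974 between the genotypes.

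The *HY5* transcript itself had levels of -0.41, -0.495 and -0.37 in *hy5-215* roots, against 1.64, 1.36 and 1.45 in WT roots. The groups did not overlap, and the transcript remained well above background in the mutant. It was 3.75-fold lower in *hy5-215* (log2 fold change -1.91, SE 0.12, adjusted p 1.52e-05). Its close relative *HYH*, a bZIP factor that shares part of the function of HY5, had levels of -3.72, -3.47 and -3.40 in *hy5-215* roots and -0.96, -1.69 and -1.46 in WT roots, and fell by 2.16 on the log2 scale (SE 0.18, adjusted p 6.85e-05).

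Across 21110 genes tested, 1074 were called (5.09%), with 436 higher (2.07%) and 638 lower (3.02%) in *hy5-215* roots. The lower genes had the larger changes: 119 of them fell over 8-fold, which is 18.7% of the lower genes, and 23 rose over 8-fold, which is 5.28% of the higher genes. The 3 *hy5-215* arrays and the 3 WT arrays did not overlap in 1067 of the called genes, and in 5999 (28.4%) of all genes tested. The median log2 fold change of all genes was 0.04, and 5511 genes had an unadjusted p below 0.05. The split depends on how background and low signals are treated. Normexp correction is a model-based background subtraction, here of the median spot signal with an offset of 50 added. After it, 820 genes were called, with 173 higher and 647 lower. The offset by itself draws the fold changes of dim genes towards 0, so that a call lost there does not show whether the gene differed.

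**Figure D1:**
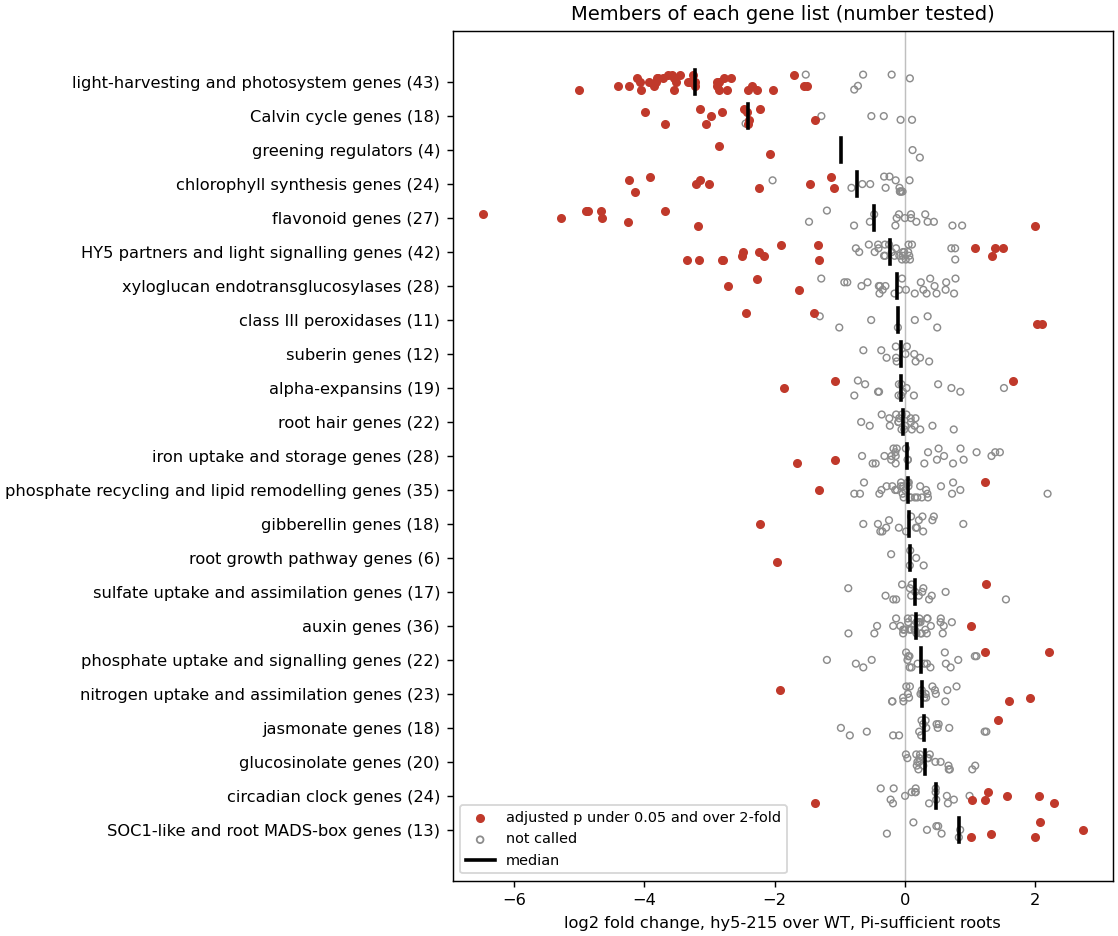
Log2 fold change of every tested member of 23 gene lists in Pi-sufficient roots, *hy5-215* over WT (x axis), with the number tested behind each list name; filled points were called, open points were not, and the black bar is the list median. The medians run from -3.22 in the light-harvesting and photosystem genes at the top to 0.83 in the SOC1-like and root MADS-box genes at the bottom.

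The genes of the photosynthetic apparatus formed the group with the lowest median. Nuclear genes encode the chlorophyll-binding antenna proteins (LHCA and LHCB) and many subunits of photosystem I (PSA) and photosystem II (PSB). Roots in the light express these genes less than leaves do. Of 43 such genes, 37 were lower in *hy5-215* roots and none was higher, with a median log2 fold change of -3.22. All 12 photosystem I subunit genes and all 10 photosystem II subunit genes listed fell, with medians of -3.502 and -3.05, as did 4 of 6 LHCA genes and 11 of 15 LHCB genes. The count of 37 was the same under each of 15 alternative treatments of the data.

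*PSBS*, whose product dissipates excess light energy, had levels of -4.33, -5.52 and -6.59 in *hy5-215* roots, against 0.22, -0.41 and -1.23 in WT roots, and fell by 5.002 (SE 0.76, adjusted p 0.0018). *LHCB1.1*, an antenna gene of photosystem II, had levels of -2.93, -3.12 and -3.07 in *hy5-215*, against 0.90, 1.39 and 1.32 in WT, and fell by 4.24 (SE 0.53, adjusted p 0.000648). The 3 mutant arrays lay below the 3 WT arrays for both genes. Probes for *LHCB1.1*, *LHCB1.2* and *LHCB1.3* may share signal, because these copies are nearly identical. *PSAK*, a photosystem I subunit gene, had the narrower levels of -1.96, -2.17 and -2.38 in *hy5-215*, against 1.63, 1.70 and 1.54 in WT, and fell by 3.79 (SE 0.26, adjusted p 2.26e-05).

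The 6 members that did not pass were *LHCA4*, *LHCA6*, *LHCB2.1*, *LHCB2.3*, *LHCB4.3* and *LHCB7*, all of them antenna genes. *LHCB2.1* had levels of -6.82, -6.45 and -5.87 in *hy5-215* and -6.67, -5.99 and -5.88 in WT. *LHCB2.3* had -6.19, -4.41 and -5.51 in *hy5-215* and -5.38, -5.38 and -5.58 in WT, and was the one member with a fold change above 0. Both were among the dimmest members in WT roots and their groups overlapped. Even in WT the list was far below its level in leaves: the array medians of the 43 genes were -2.76 to -2.67 in *hy5-215* roots and -0.02 to 0.45 in WT roots, against 6.61 to 6.95 in *hy5-215* shoots and 6.62 to 6.97 in WT shoots.

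**Figure D2:**
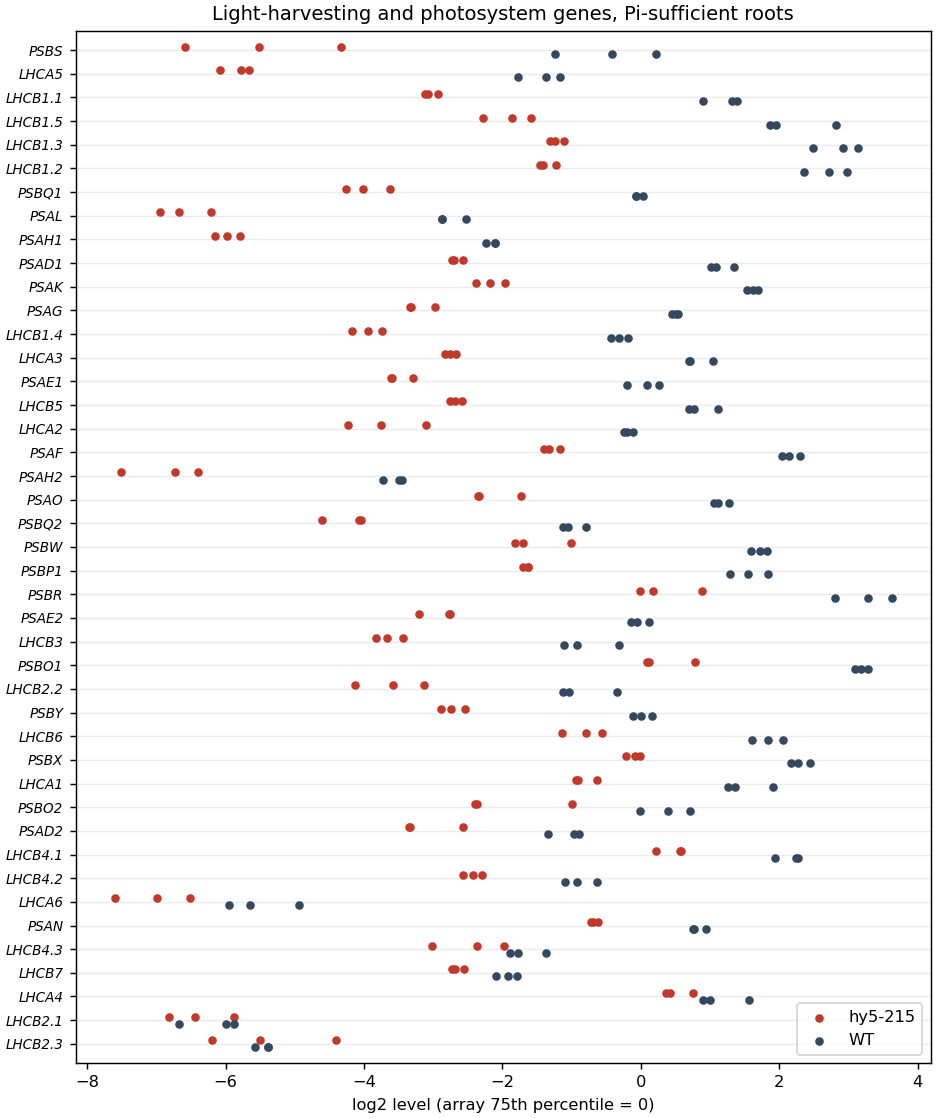
Level of each of the 43 light-harvesting and photosystem genes (x axis, log2 signal with the array's 75th percentile at 0) on the 3 *hy5-215* arrays (upper row of points of each gene) and the 3 WT arrays (lower row), ordered by fold change from the lowest at the top. The mutant points lie left of the WT points for 41 genes, and they overlap for *LHCB2.1* and *LHCB2.3*.

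In chlorophyll synthesis, the lower genes all lay on one stretch of the pathway. Of 24 genes tested, 10 were lower and none was higher (median -0.74). When the list was divided by step, which was done after its values were seen, none of the 11 genes that lead from glutamate to protoporphyrin was called (median -0.08), and 10 of the 13 genes of the magnesium branch were lower (median -2.23). *CHLH*, the large subunit of magnesium chelatase, had levels of -3.38, -4.01 and -3.96 in *hy5-215*, against 0.71, 0.22 and 0.14 in WT, and fell by 4.14 (SE 0.28, adjusted p 1.94e-05). *PORB*, a light-dependent protochlorophyllide reductase, fell by 4.24 (SE 0.24, adjusted p 8.58e-06). *GUN4*, which activates the chelatase, fell by 3.92. *PORC* fell by 2.23 (adjusted p 0.0127), and without *hy5-215* replicate 3 its adjusted p was 0.0551. By contrast, *HEMA1*, the first committed enzyme of tetrapyrrole synthesis, had 0.34, 0.29 and 0.20 in *hy5-215* and 0.22, 0.42 and 0.40 in WT, and its groups overlapped (log2 fold change -0.07, adjusted p 0.776). *HEMD* rested on 1 array, with levels of -1.28, -6.79 and -1.47 in *hy5-215* and -1.16, -0.94 and -1.35 in WT.

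Calvin cycle genes followed the antenna genes in direction. Of 18 tested, 12 were lower and none was higher (median -2.41), with 9 to 14 lower under the alternatives. *FBA2*, a plastid aldolase, had levels of -2.37, -3.18 and -3.31 in *hy5-215*, against 0.68, 1.38 and 1.06 in WT, and fell by 3.99 (SE 0.55, adjusted p 0.00113). *RBCS1A*, a small subunit of Rubisco and one of the brightest genes of the list, had 0.96, 0.30 and 0.54 in *hy5-215*, against 3.08, 3.01 and 2.98 in WT, and fell by 2.42 (SE 0.53, adjusted p 0.0129). The groups were separate for both. *RBCS1B* and *RBCS3B*, which are near-identical to each other, passed the limit on adjusted p only narrowly (0.0482 and 0.0415).

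Among regulators of greening, *GNC*, a GATA factor that promotes chloroplast development, had levels of -7.40, -7.05 and -7.30 in *hy5-215*, against -4.99, -4.26 and -3.93 in WT, and fell by 2.86 (SE 0.27, adjusted p 0.000142). *SIG5*, a sigma factor of the plastid RNA polymerase that responds to blue light, fell by 2.07 (SE 0.21, adjusted p 0.00022). *GLK1* and *GLK2*, which activate antenna and chlorophyll genes, had overlapping groups: *GLK2* had levels of -1.20, -1.20 and -0.76 in *hy5-215* and -1.37, -1.26 and -0.89 in WT. Their log2 fold changes were 0.23 (adjusted p 0.641) and 0.12 (adjusted p 0.769).

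Flavonol synthesis genes held the largest single changes of any list. The pathway leads from phenylalanine through chalcone synthase (CHS), chalcone isomerase (CHI) and the hydroxylases F3H and F3'H to flavonol synthase (FLS1), and MYB12 is a MYB factor that activates these genes in roots. Of 27 flavonoid genes tested, 9 were lower and 1 was higher, and the median was -0.47, or -0.20 without WT replicate 1. The lower genes were *FLS1*, *F3'H*, *CHI*, *CHS*, *MYB12*, *F3H*, *CHIL*, *4CL3* and *UGT78D2*, between -6.49 and -3.17. At least 9 were lower under each of the 15 alternatives.

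*FLS1* had levels of -1.59, -3.28 and -5.12 in *hy5-215*, against 4.34, 2.75 and 2.39 in WT, and fell by 6.49 (SE 0.98, adjusted p 0.00179). *CHS* had 0.03, -0.80 and -2.23 in *hy5-215*, against 4.88, 3.76 and 2.95 in WT, and fell by 4.86 (SE 0.77, adjusted p 0.00227). *MYB12* had -3.40, -4.71 and -5.11 in *hy5-215*, against 0.69, -0.19 and 0.30 in WT, and fell by 4.67 (SE 0.56, adjusted p 0.000519). No mutant array reached a WT array in these 3 genes, and replicate 1, which shared a slide between the genotypes, was the highest of its group for each. *MYB111*, another MYB of flavonol synthesis, was above background on none of the 6 arrays.

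Earlier steps shared with lignin synthesis did not pass: *PAL1* and *PAL2*, *C4H*, *4CL1* and *4CL2* had log2 fold changes of -0.47, -0.09, -0.12, 0.00 and 0.18, with adjusted p from 0.174 to 1.0. *PAL3*, a further phenylalanine ammonia-lyase gene, was the one higher member. It had -6.08, -6.05 and -6.22 in *hy5-215*, against -9.50, -8.19 and -6.66 in WT, where it was above background on 1 array (log2 fold change 2.0, adjusted p 0.0325), and the call was lost without *hy5-215* replicate 1, 2 or 3, without WT replicate 2, after normexp correction and when the 6 arrays were fitted alone. The anthocyanin genes *DFR* and *LDOX* and the regulators *MYB75*, *MYB90* and *TT8* were too dim to be tested in either genotype.

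**Figure D3:**
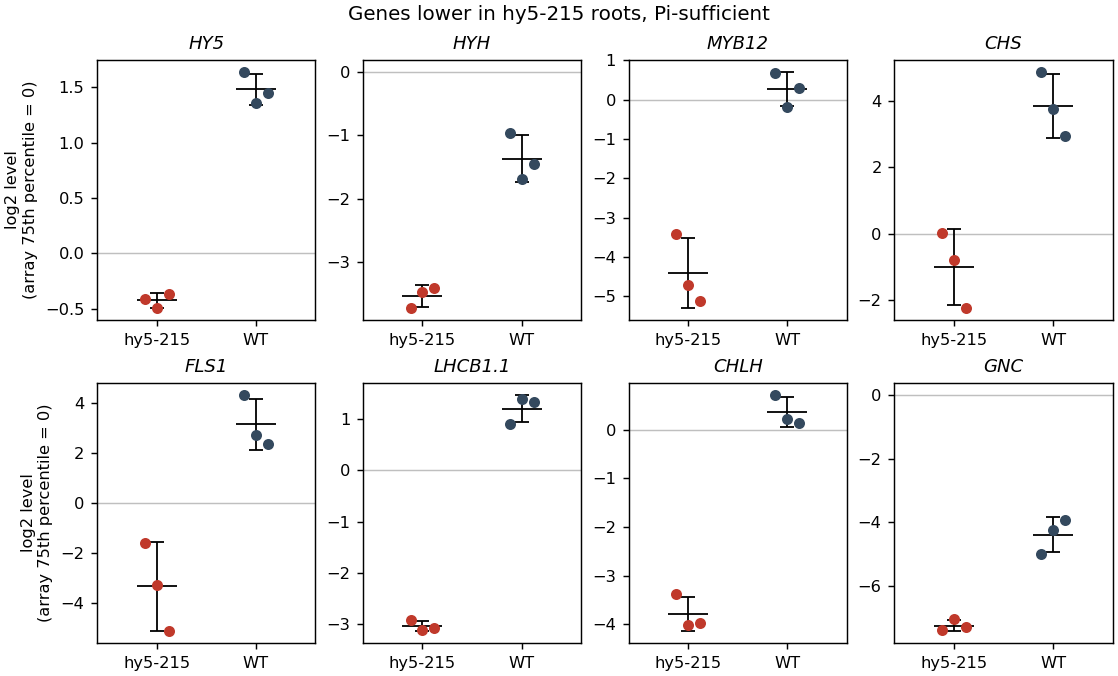
Level of 8 genes on each array of Pi-sufficient roots (y axis, log2 signal with the array's 75th percentile at 0; each panel has its own range), *hy5-215* left and WT right, with the mean (horizontal bar) and SD (whisker) of 3 arrays. In every panel the 3 mutant points lie below the 3 WT points; *HY5* differed by 1.91 and *FLS1* by 6.49.

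In the light signalling list, 11 of 42 genes tested were lower and 4 were higher (median -0.22). Besides *HY5* and *HYH*, the lower genes held proteins that work on the HY5 protein or its photoreceptors: *SPA1*, *SPA3* and *SPA4* of the COP1-SPA complex (-1.34, -2.80 and -3.17), and *RUP1* and *RUP2*, which switch UVR8 off (-2.49 and -1.32). *RUP1* had levels of -1.801, -2.33 and -2.19 in *hy5-215*, against 0.08, 0.44 and 0.63 in WT (SE 0.18, adjusted p 3.17e-05). *HFR1*, a bHLH factor of the shade response, fell by 3.35 (SE 0.35, adjusted p 0.000245). *ELIP1* and *ELIP2*, early light-inducible proteins of the thylakoid, fell by 2.80 and 2.51. The count of 11 was the same under each alternative.

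B-box zinc finger factors moved in both directions. *BBX20*, a factor that acts together with HY5, had levels of -1.39, -1.65 and -1.27 in *hy5-215*, against 0.64, 0.86 and 0.91 in WT, and fell by 2.24 (SE 0.27, adjusted p 0.000519). *BBX30*, a microprotein that consists of little more than a B-box, had -4.06, -4.96 and -4.43 in *hy5-215*, against -5.78, -6.64 and -5.53 in WT, where 2 of 3 arrays were above background, and rose by 1.503 (SE 0.29, adjusted p 0.0069). *BBX28* and *BBX31* rose by 1.35 and 1.38, and *FHL*, a factor in nuclear import of phytochrome A, by 1.08. None of these 4 higher calls held after normexp correction, and that of *BBX30* was also lost when the 6 arrays were fitted alone. The list held 2 higher calls in that fit, and 2 or 3 with any 1 of the 6 arrays left out. The photoreceptor genes *PHYA*, *PHYB*, *CRY1*, *CRY2* and *UVR8*, and *COP1*, were not called.

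Clock genes ran mostly the other way. Of 24 tested, 6 were higher, 1 was lower, and the median was 0.48, or 0.15 after normexp correction. *CDF3* and *CDF1*, Dof-type repressors of flowering genes, rose most. *CDF3* had levels of -0.26, 0.12 and 0.00 in *hy5-215*, against -2.80, -2.09 and -2.12 in WT, and rose by 2.29 (SE 0.24, adjusted p 0.000239). *CDF1* had -1.72, -1.87 and -2.43 in *hy5-215*, against -3.49, -4.28 and -4.43 in WT, and rose by 2.06 (SE 0.30, adjusted p 0.00141). *PRR7*, *LNK1*, *LNK2* and *GI* rose by 1.57, 1.28, 1.23 and 1.03; the call of *PRR7* was lost without *hy5-215* replicate 2 or WT replicate 1 or 3, and that of *LNK2* after normexp correction. The one lower gene was *ELF4* of the evening complex, with 2.73, 2.39 and 2.48 in *hy5-215*, against 4.01, 3.85 and 3.87 in WT, and a decrease of 1.38 (SE 0.14, adjusted p 0.000174). The groups did not overlap for *CDF3*, *CDF1* and *ELF4*. *CCA1*, *TOC1* and *RVE1* had log2 fold changes of 0.65, -0.22 and 0.66 and were not called, nor was *PRR9*, which was above background on no WT array. The hour of harvest was not given in the sources used here, and a difference of sampling time between the groups was not tested.

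MADS-box genes related to *SOC1* or expressed in roots had the highest list median, 0.83 (0.52 after normexp correction), with 5 of 13 higher and none lower. *AGL44*, known as a nitrate-responsive gene of lateral roots, had levels of -3.51, -4.26 and -3.73 in *hy5-215*, against -5.61, -7.12 and -6.97 in WT, where 2 of 3 arrays were above background, and rose by 2.73 (SE 0.37, adjusted p 0.000937). *AGL72* and *AGL71*, relatives of the flowering gene *SOC1*, rose by 2.08 and 2.01, *SEP4* by 1.33 and *AGL79* by 1.02. *AGL79* lost its call without *hy5-215* replicate 1 or 3 or WT replicate 2, and when the 6 arrays were fitted alone. *AGL72* was above background on 1 WT array. *SOC1* itself had 1.21, 0.71 and 0.88 in *hy5-215* and 1.06, 0.57 and 0.77 in WT, with overlapping groups (log2 fold change 0.13, adjusted p 0.74). These genes were dim, and after normexp correction none of the 5 was called.

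The nutrient lists bear on the study's question about Pi. Of 22 Pi uptake and signalling genes, 2 were higher and none lower (9.09% called, against 5.09% of all genes; median 0.25, or 0.16 without *hy5-215* replicate 1 and 0.12 after normexp correction), and both were non-coding RNAs that sequester a phosphate-starvation microRNA. *AT4* had levels of 5.40, 4.85 and 5.05 in *hy5-215*, against 4.52, 3.96 and 3.11 in WT (log2 fold change 1.24, SE 0.29, adjusted p 0.0181). *IPS1* had -4.53, -4.93 and -6.28 in *hy5-215*, against -6.90, -6.85 and -8.65 in WT, above background on 1 WT array (log2 fold change 2.22, SE 0.57, adjusted p 0.026). The groups were separate for both, but each call was lost without *hy5-215* replicate 1, without WT replicate 3 and when the 6 arrays were fitted alone, that of *IPS1* also without *hy5-215* replicate 2 and after normexp correction, and that of *AT4* also without *hy5-215* replicate 3.

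*PHT1;1*, the main Pi importer of the root, had 4.66, 4.59 and 4.58 in *hy5-215* and 4.28, 4.06 and 3.65 in WT. It was higher by 0.62 on the log2 scale (SE 0.14, adjusted p 0.0149), below the fold limit, and its probe may share signal with the neighbouring copy *PHT1;2*. *PHO1*, the xylem-loading exporter, and *SPX1*, a Pi sensor, had log2 fold changes of 0.40 and 0.04 and were not called. *PHT1;9* had a log2 fold change of 1.08 (adjusted p 0.106) and passed in the fit with the slide as a block (adjusted p 0.0271) and without *hy5-215* replicate 2 (1.41, adjusted p 0.0497). Of 35 genes for Pi recycling and lipid remodelling, 5.71% were called. The purple acid phosphatase gene *PAP22* was higher (1.24, adjusted p 0.0231) and *PAP3* lower (-1.32, adjusted p 0.00455). The call of *PAP22* was lost without *hy5-215* replicate 1 or 3 or WT replicate 2 or 3. It was also lost after normexp correction and when the 6 arrays were fitted alone.

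In nitrogen nutrition, 2 of 23 genes were higher and 1 was lower (13.0% called). *NRT1.8*, which removes nitrate from the xylem sap, had levels of -2.74, -2.62 and -2.65 in *hy5-215*, against -4.84, -4.51 and -4.45 in WT, and rose by 1.93 (SE 0.15, adjusted p 3.54e-05). *AMT1;2*, an ammonium importer, had 2.503, 1.94 and 2.37 in *hy5-215*, against 1.18, 0.26 and 0.55 in WT, and rose by 1.61 (SE 0.27, adjusted p 0.00315). Neither gene's groups overlapped. *GLU1*, the ferredoxin-dependent glutamate synthase of plastids, had a log2 fold change of -1.92 (adjusted p 0.0357), and the call was lost whenever any 1 of the 6 arrays was left out. *NRT1.1*, *NRT2.1*, *NIA1* and *NIR1*, for nitrate uptake and reduction, were not called, with log2 fold changes of 0.07, 0.62, 0.27 and 0.26.

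*SULTR1;2*, the main sulfate importer of the root, was the 1 called gene of 17 in sulfate uptake and assimilation (5.88%). It had 3.67, 3.62 and 3.54 in *hy5-215*, against 3.00, 2.22 and 1.87 in WT, and rose by 1.24 (SE 0.26, adjusted p 0.00925), which was 0.99 and below the fold limit without WT replicate 3. Its call was also lost when the 6 arrays were fitted alone (adjusted p 0.0504). With the slide as a block 2 of the 17 were called, since *BGLU28*, a beta-glucosidase gene, passed there (log2 fold change 1.56, adjusted p 0.467 without the block and 0.013 with it). In iron nutrition, 2 of 28 genes were lower (7.14%): the ferritin gene *FER2* by 1.66 (SE 0.20, adjusted p 0.00057), and *NAS3*, which was above background on none of the 6 arrays and is given no fold. *IRT1* and *FRO2*, the iron importer and reductase, had log2 fold changes of 0.91 and 0.74 and wide spreads (adjusted p 0.392 and 0.281). *BHLH39*, a regulator of both, had 1.46 (adjusted p 0.106) and passed with the slide as a block (adjusted p 0.00568).

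**Figure D4:**
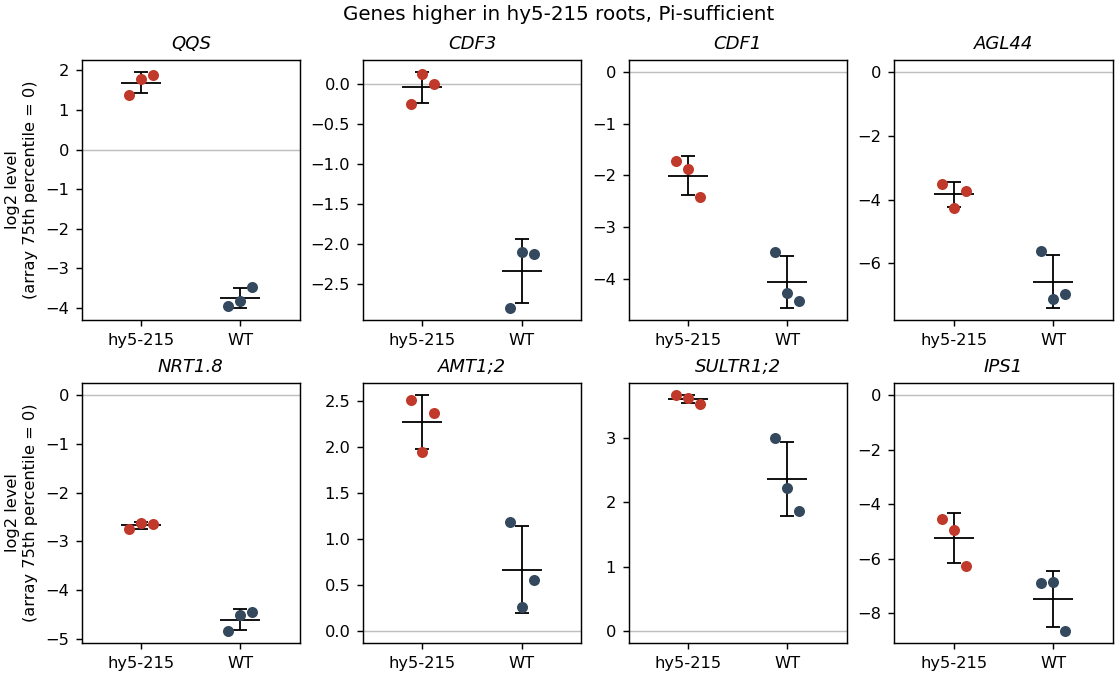
Level of 8 genes on each array of Pi-sufficient roots (y axis, log2 signal with the array's 75th percentile at 0; each panel has its own range), *hy5-215* left and WT right, with the mean (horizontal bar) and SD (whisker) of 3 arrays. The mutant points lie above the WT points in every panel; the difference was 5.45 for *QQS* and 1.24 for *SULTR1;2*.

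The growth and hormone lists held 1 called gene each, or none. That is 5.56% of the gibberellin and of the jasmonate list, 2.78% of the auxin list and 16.7% of the root growth list, against 5.09% of all genes. *LPR1*, the 1 called gene of 6 in the root growth list, is a ferroxidase that restrains the root meristem when Pi is low; it had levels of -2.84, -3.14 and -3.29 in *hy5-215*, against -0.18, -1.68 and -1.53 in WT, and fell by 1.96 (SE 0.37, adjusted p 0.00587). Its partners *STOP1* and *ALMT1*, a zinc finger factor and the malate channel it controls, had log2 fold changes of 0.18 (adjusted p 0.0483, under the fold limit) and 0.29 (adjusted p 0.439). *GA3OX2*, which makes active gibberellin, fell by 2.22 (SE 0.33, adjusted p 0.0017), the 1 called gene of 18. In the auxin list *IAA6* was higher by 1.02, the 1 called gene of 36, and in the jasmonate list *JAZ10* was higher by 1.43, the 1 called gene of 18. *IAA6* lost its call without *hy5-215* replicate 1 or WT replicate 2 or 3, and *JAZ10* without any 1 array other than WT replicate 1. Both calls were also lost after normexp correction, and that of *JAZ10* when the 6 arrays were fitted alone. None of 22 root hair genes, 12 suberin genes or 20 glucosinolate genes was called. With the slide as a block, 1 glucosinolate gene was called, *MYB29*, a regulator of aliphatic glucosinolate synthesis (log2 fold change 1.04, adjusted p 0.185 without the block and 0.011 with it). All 20 glucosinolate genes had a fold change above 0 (median 0.32), as did 12252 of all 21110 genes tested.

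Cell wall genes included *XTH7*, *XTH32* and *XTH31*, xyloglucan endotransglucosylases that cut and rejoin wall polymers. *XTH7* had levels of -0.42, -0.16 and -0.46 in *hy5-215*, against 2.25, 2.45 and 2.39 in WT, and fell by 2.71 (SE 0.24, adjusted p 8.88e-05). *XTH32* fell by 2.27 (SE 0.16, adjusted p 2.25e-05) and *XTH31* by 1.62, and the other 25 tested members were not called (10.7% called, against 5.09% of all genes). Among 19 expansin genes (15.8% called), *EXPA10* and *EXPA17* were lower (-1.86 and -1.08) and *EXPA8* was higher (1.66). The call of *EXPA17* was lost without *hy5-215* replicate 2 or 3 or any 1 WT array, and when the 6 arrays were fitted alone. The class III peroxidase list was taken by gene name and holds only part of that family (13 loci, 11 tested). Of the 11, 2 were lower and 2 were higher (36.4% called, against 5.09% of all genes). *PRX52* and *PRXCB*, 1 of each kind, lost their calls when single arrays were left out. These were *hy5-215* replicate 1 or 3 or WT replicate 2 or 3 for *PRX52*, and *hy5-215* replicate 2 or 3 or WT replicate 1 for *PRXCB*. With the 6 arrays fitted alone, 1 of the 11 was higher and none was lower.

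Ordered by fold change over all genes, the lower end held mostly genes outside the lists. AT3G28899, which has no symbol in the annotation used, had levels of -6.79, -5.64 and -6.84 in *hy5-215*, against 0.94, 0.93 and 0.35 in WT, and fell by 7.16 (SE 0.33, adjusted p 3.94e-06). In the WT Col-0 roots of the *BBX32-SRDX* set, however, it had -6.56, -5.91 and -6.47, within the range of the *hy5-215* roots, so that the 2 sets of Col-0 controls differed for this gene and the cause was not tested. AT3G52740 fell by 6.49 and AT5G62210 by 5.94, and AT4G04750, above background on 1 of 3 mutant arrays, by 6.27. *UGT84A2*, a glucosyltransferase of sinapate metabolism, fell by 5.996 (SE 0.56, adjusted p 0.000123). *ATS3*, AT2G34620 and AT1G60590 were not above background on any mutant array, so that only a bound can be given, the mutant level taken as the higher of its own signal and the lowest signal well above background: they were at least 57.0-fold, 22.2-fold and 8.72-fold lower in *hy5-215* (adjusted p 4.29e-05, 0.000401 and 1.52e-05).

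At the higher end, *QQS*, a gene with a role in starch accumulation, had levels of 1.39, 1.797 and 1.90 in *hy5-215*, against -3.96, -3.82 and -3.47 in WT, and rose by 5.45 (SE 0.18, adjusted p 1.04e-06). *CYP76C4*, a cytochrome P450 gene, rose by 4.78, AT2G44220 by 4.12, AT2G36255 by 3.98, the transcription factor gene *WRKY59* by 3.94 and *LCR35*, a small cysteine-rich protein gene, by 3.83. In WT, *LCR35* was above background on 1 array and *CYP76C4*, AT2G44220 and *WRKY59* on 2. Another 4 genes were above background on no WT array and had bounds only: AT1G55230 was at least 19.4-fold, AT5G35760 at least 8.36-fold, *FPF1*, a gene tied to flowering, at least 4.25-fold and AT1G29100 at least 3.96-fold higher in *hy5-215*. The calls of *LCR35*, *FPF1*, AT1G55230, AT5G35760 and AT1G29100 were lost after normexp correction, and that of *LCR35* also without *hy5-215* replicate 2 or 3 or WT replicate 1 or 2.

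The same mutant was grown at deficient Pi, on the same slides and with its own 3 WT arrays. There 1275 of the same genes were called (6.04%). The 2 lists had 732 genes in common, all in the same direction, which is 68.2% of the calls at sufficient Pi and 57.4% of those at deficient Pi. The *hy5-215* effect at sufficient Pi differed from that at deficient Pi in 71 genes (0.336%) by the interaction test, 33 with a higher and 38 with a lower effect at sufficient Pi, or 207 with the slide as a block. No member of the antenna and photosystem, chlorophyll, Calvin cycle or flavonoid lists was among the 71. A share of 0.336% leaves most lists of 18 to 43 tested genes with none, so their absence says little. *HY5* fell by 1.91 at sufficient Pi and by 2.05 at deficient Pi.

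Of the list members, *NRT1.8* had a higher effect at sufficient Pi: its log2 fold change was 1.93 there and -0.43 at deficient Pi, a difference of 2.36. The MADS-box genes *AGL71*, *AGL19*, *FUL* and *AGL17* had the smaller effect at sufficient Pi, with differences of -4.13, -1.84, -1.36 and -1.17; for *AGL71* the log2 fold changes were 2.01 at sufficient Pi and 6.14 at deficient Pi. *UMAMIT17*, a gene of the UMAMIT transporter family, had -0.85 at sufficient Pi and 3.94 at deficient Pi, a difference of -4.79. *IPS1* and *AT4* had -0.51 and 0.26 at deficient Pi, and their differences of 2.73 and 0.98 were not called.

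**Figure D5:**
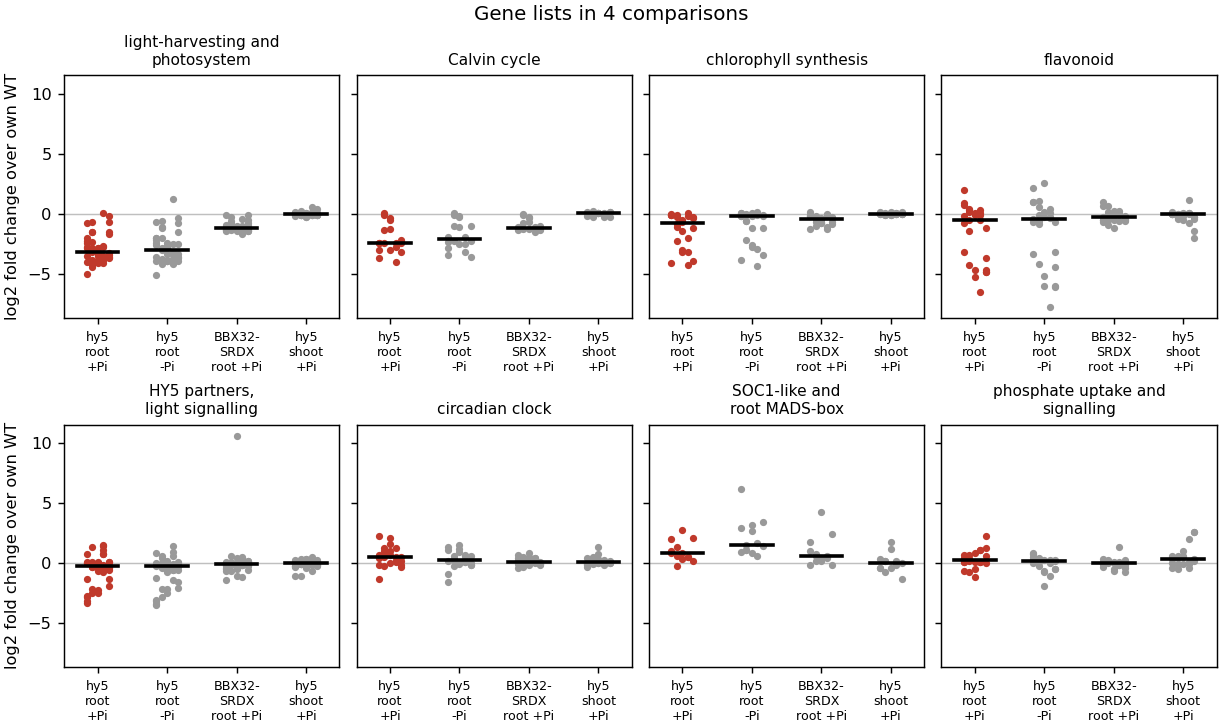
Log2 fold change (y axis) of the tested members of 8 gene lists in 4 comparisons, each line over its own WT: *hy5-215* roots at sufficient Pi (red), *hy5-215* roots at deficient Pi, *BBX32-SRDX* roots at sufficient Pi and *hy5-215* shoots at sufficient Pi (grey); points are genes and black bars are medians. For the light-harvesting and photosystem genes the medians were -3.22, -2.98, -1.20 and 0.00; the single point above 10 is *BBX32* in the line that carries it as a transgene.

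*BBX32-SRDX* plants express, from the constitutive 35S promoter, the B-box factor BBX32 fused to a repression domain; BBX32 is known to act on HY5. They had their own 3 WT arrays in a separate set of slides that was read out with an older version of the Feature Extraction software, per the file headers. The 2 effects differed in 241 of 21677 genes (1.11%), 55 with a higher and 186 with a lower effect in *hy5-215*, or 483 with the slide as a block. *BBX32-SRDX* roots had 230 called genes of their own (1.06%), with 175 higher and 55 lower. The median of the photosystem genes was -3.22 in *hy5-215* and -1.20 in *BBX32-SRDX*, where 1 of 43 passed. The array medians of the 43 genes spread widely in *BBX32-SRDX* roots, from -1.51 to 0.07, against 0.29 to 0.79 in their WT. The difference between the 2 effects was called for 7 of the 43, *PSAK* among them (-3.79 and -1.38). Flavonol genes differed more: *FLS1* had -6.49 in *hy5-215* and -0.60 in *BBX32-SRDX*, *CHS* -4.86 and -0.22, *MYB12* -4.67 and -0.19, and 8 of 27 flavonoid genes had a called difference. *HY5* itself had -1.91 in *hy5-215* and -0.19 in *BBX32-SRDX*.

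All 10 of the most decreased genes of *hy5-215* had a called difference from *BBX32-SRDX*, against 3 of the 10 most increased, and 7 of the 10 most increased were also over 8-fold up in *BBX32-SRDX*. That fold was taken as measured, also for dim genes such as AT1G55230, with -9.569, -9.515 and -8.999 in the WT of the *BBX32-SRDX* set. For AT3G28899, the *BBX32-SRDX* and their own WT roots were both near the *hy5-215* level, so that its difference rests on the WT of the *hy5-215* set. Since these genes were picked by the *hy5-215* effect, which enters the difference, the counts describe them only. *CYP76C4* had 4.78 in *hy5-215* and 3.498 in *BBX32-SRDX*, *WRKY59* had 3.94 and 3.82, *AGL44* had 2.73 and 4.27, and the differences were not called. The 3 that differed were *QQS* (5.45 in *hy5-215* and -0.40 in *BBX32-SRDX*), AT5G35760 (at least 8.36-fold higher in *hy5-215* and -0.47 in *BBX32-SRDX*) and AT2G36255 (3.98 in *hy5-215* and 0.72 in *BBX32-SRDX*). *AMT1;2* and *BBX31* were higher in *hy5-215* (1.61 and 1.38) and had -1.02 and -1.21 in *BBX32-SRDX*, with differences of 2.62 and 2.60 that were called.

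In shoots of the same genotypes at sufficient Pi, labelled leaf, 21 of 21875 genes were called (0.096%), 8 higher and 13 lower. The *HY5* transcript was not lower there: it had -0.86, -1.46 and -1.54 on the arrays labelled *hy5-215*, against -0.62, -1.76 and -1.41 on those labelled WT (log2 fold change -0.02). *QQS* and AT3G28899 nevertheless had log2 fold changes of 3.54 and -5.51 between the shoot arrays labelled *hy5-215* and those labelled WT. The root and shoot effects differed in 491 genes (2.24%), 109 with a higher and 382 with a lower effect in roots, or 938 with the slide as a block. Among them were 36 of 43 photosystem genes, whose median was -3.22 in roots and 0.00 in shoots, 9 chlorophyll, 9 Calvin cycle and 8 flavonoid genes. In shoots 9 photosystem genes were saturated on at least 1 *hy5-215* array and 4 on at least 1 WT array, and none was in roots.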

How the data were processed

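RNA of *Arabidopsis thaliana* roots and shoots was measured on 1-colour Agilent 4x44k arrays. Per the labels, total RNA was isolated with a Plant RNeasy kit and 200 ng was labelled with Cy3. The authors deposited scanner output of 64 arrays, in which the processed signal is a background-subtracted intensity in linear units; the submitters' processing notes name Agilent Feature Extraction 9.1.3.1, which the headers of the *BBX32-SRDX* set and its WT also give, whereas the headers of the *hy5-215* set and its WT give 11.5.1.1. A deposited table holds the natural log of the same processed signal minus 1 constant per array, as a comparison with the scanner values showed; it was used as an alternative through 12 columns, and 52 columns of other samples were not used.

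On the log2 scale, every array was set to 0 at its own 75th percentile. Spots flagged as outliers were left out, so that 74 of the genes tested lack at least 1 array. Probes (43603) were named through RefSeq transcript, protein and locus identifiers (34597 matched, 79.3%), and the brightest of several probes stood for a gene. A gene was kept if its probe stood well above background in every array of any one group, and limma 3.58.1 (R 4.3.3) with Benjamini-Hochberg adjustment was the test. The 12 root arrays of the *hy5-215* set entered the main comparison, and 24 arrays the comparisons with *BBX32-SRDX* and with shoots. On simulated data for *hy5-215* against WT in Pi-sufficient roots (20954 genes), 81% of genes changed by 1.5 and 93% changed by 2 on the log2 scale were recovered, and 5 of 20754 unchanged genes were called. The simulated errors were independent between arrays, unlike those of arrays on the same slide described below, so that these rates hold for independent errors only.

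Replicate numbers pair the samples: each number is 1 slide, and same-numbered arrays of the 4 root groups deviated together (r from 0.279 to 0.605 in 18 pairs, against -0.420 to 0.028 for other numbers). Fits with the slide as a block are given where they change a call or move a count by over 1.5 times. Alternatives were quantile or median scaling, normexp correction, the authors' table, dim probes kept, averaging over a gene's probes, the block, the 6 arrays alone, other thresholds and single arrays left out; keeping outlier spots was added after the data were seen. Arrays carry no read depth, and their number limits the precision.

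The members and gene lists were chosen with earlier results of these data known. Genes are named by rule: the 10 lowest and 10 highest called genes without overlap, up to 6 called members with the largest change in each list, a fixed set of pathway genes whatever their values, and the 5 extremes of each difference; other list members are named in addition to account for a list. Promoter motifs were not analysed here.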

Additional observations from a re-analysis of the deposited data

Results flagged for a closer look

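Effects of *hy5-215* that differed between Pi levels or between organs were marked by the tests of the difference itself. Between sufficient and deficient Pi, 71 genes differed. The effect was higher at sufficient Pi for *ELI3-2* (difference on the log2 scale 4.53), AT3G06830 (2.91), AT2G34930 (2.52), AT1G70270 (2.51), AT2G44240 (2.42) and *NRT1.8* (2.36). It was lower at sufficient Pi for *UMAMIT17* (-4.79), *AGL71* (-4.13), AT4G19750 (-3.69), AT3G46400 (-3.22), AT2G02640 (-2.70), *AGL19* (-1.84), *FUL* (-1.36) and *AGL17* (-1.17). *ELI3-2*, AT4G19750 and AT2G02640 were above background on none of the 6 Pi-sufficient root arrays, so that their differences rest on the Pi-deficient arrays, and AT3G06830 and AT1G70270 were above background on no WT array at sufficient Pi.

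Between roots and shoots at sufficient Pi, 491 genes differed. The root effect was lower than the shoot effect for AT3G52740 (-5.89), AT5G62210 (-5.80), *FLS1* (-5.73), *UGT84A2* (-5.73) and *ATS3* (-5.71, with the mutant root arrays below background). It was higher in roots for AT1G55230 (6.54), *CYP76C4* (4.86), *FPF1* (4.50), AT2G36255 (4.35) and *LCR35* (4.26), and AT1G55230 and *FPF1* were below background in WT roots. By list, 36 light-harvesting and photosystem genes, 9 chlorophyll synthesis genes, 9 Calvin cycle genes, 8 flavonoid genes and 5 light signalling genes differed between the organs. The shoot arrays labelled *hy5-215* had no lower *HY5* level than those labelled WT, so that this transcript does not tell the genotypes apart there. *QQS* and AT3G28899 had log2 fold changes of 3.54 and -5.51 in shoots, in the direction of their 5.45 and -7.16 in roots. Whether the shoot labels are right was not tested.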

How the results depend on the processing

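The 1074 genes called in Pi-sufficient roots became 1074 with quantile scaling, 820 with normexp correction, 904 with the 6 arrays alone, 1235 with the replicate block and 3103 with no fold limit, and 906 to 1037 with single arrays left out. The 71 genes whose effect differed between Pi levels became 45 with no filter on dim probes, 117 with no fold limit, 207 with the replicate block and 30 to 87 with single arrays left out. The replicate block gave 483 in place of 241 genes for the difference from *BBX32-SRDX* and 938 in place of 491 for the difference from shoots; with single arrays left out they were 178 to 240 and 413 to 546. Among genes named by rule, the block added the calls of *PHT1;9* and *BHLH39* and changed no other call; among other list members it added *RBCS2B*, *CP12-2*, *UGT78D1*, *BGLU28* and *MYB29*. Of 375 list medians under the alternatives, 30 moved by more than the spread between replicates, 8 of them with normexp correction. Of 1916 values of 128 named genes under the alternatives, 86 lost a call (51 with single arrays left out, 18 with normexp correction) and 25 changed sign. Normexp correction turned the log2 fold change of *PRX52* to -0.15, *GLK1* to -0.60, *CCA1* to -0.22, *PRR9* to -0.73, AT3G06830 to -0.079 and AT1G70270 to -0.45. Quantile scaling turned *NRT1.1* to -0.001, *FER1* to -0.012, AT4G19750 to 0.052 and *ELI3-2* to 0.027, and the mean of all probes turned *FER1* to -0.42. With single arrays left out, log2 fold changes ran from -0.022 to 0.44 for *GLK1*, -0.026 to 0.26 for *GLK2*, -0.43 to 0.37 for *SPX1*, -0.15 to 0.44 for *NRT1.1*, -0.18 to 1.11 for *NRT2.1*, -0.11 to 0.16 for *FER1*, -0.006 to 0.26 for *SOC1* and -0.85 to 0.083 for *ELI3-2*. The cause was not tested. Signal over background limits the size of some changes: 38 called genes were above background on no WT array and 23 on no *hy5-215* array.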

Other observations

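The extreme differences between the effects of *hy5-215* and *BBX32-SRDX* in Pi-sufficient roots included that of *BBX32* itself (-11.1 on the log2 scale), which the *BBX32-SRDX* line carries as a transgene. AT3G28899 (-6.88) was also at the lower end. The WT roots of the *BBX32-SRDX* set had AT3G28899 levels of -6.56, -5.91 and -6.47, and those of the *hy5-215* set 0.94, 0.93 and 0.35. The higher end included *QQS* (5.85), AT1G36622 (3.85) and AT5G01080 (3.54). The *BBX32* transcript had levels of -6.90, -6.93 and -7.44 in *hy5-215* roots, against -6.48, -6.75 and -6.65 in their WT, and was not called (log2 fold change -0.46, adjusted p 0.311).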
